A study of Homo sapiens with 6 samples.

Results

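The 10 genes described here encode the cyclins of the G1 phase and the inhibitors of the kinases that they activate. They were taken by name from the 24960 genes of the deposited count table, and all 10 were found in it and tested. The list holds the Cip/Kip inhibitors CDKN1A, CDKN1B and CDKN1C, the INK4 inhibitors CDKN2C and CDKN2D, the D-type cyclins CCND1, CCND2 and CCND3, and the E-type cyclins CCNE1 and CCNE2. RNA came from K562, a chronic myeloid leukemia (CML) cell line that carries BCR::ABL, with 3 control libraries and 3 libraries from cells given 2 mM hyperoside, a plant flavonol glycoside. The control cells were of the same line, and no genetic change was made in either group. The labels do not say what the controls received or how long the cells were treated before sequencing, nor do they say whether replicates were separate cultures, so p-values measure the spread between these libraries, which may be technical. A single cell line was sequenced.

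D-type cyclins bind CDK4 and CDK6, and the complexes phosphorylate the retinoblastoma protein, which frees E2F factors to switch on genes for DNA synthesis. Cyclin E with CDK2 completes that step. INK4 proteins block CDK4 and CDK6 alone, whereas Cip/Kip proteins bind a wider range of cyclin and kinase pairs, and CDKN1B (p27) is removed by the ubiquitin ligase that contains SKP2. In CML cells BCR::ABL signaling is known to keep cyclin D2 high and p27 low. K562 cells are known to lack functional p53, the main inducer of CDKN1A (p21), and the locus of the INK4 genes CDKN2A and CDKN2B. In these libraries CDKN2A and CDKN2B had 0 counts in each library except for a single count of CDKN2A in hyperoside replicate 1 and a single count of CDKN2B in hyperoside replicate 2, both under the limit of 3 counts that a count of 0 allows.

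Library totals lay between 35613283 and 36754725 counts, and each member had at least 160 counts in every library. Control replicate 1 stood apart from the other controls, with a chi-square per degree of freedom of 21.8 and 24.9 against them, compared with 6.56 between control replicates 2 and 3. Hyperoside replicate 2 had 10.9 and 14.0 against hyperoside replicates 1 and 3, compared with 7.59 between those. The erythroid markers of K562 were expressed, with GATA1 at mean values of 140.8 CPM (counts scaled to library size) in control and 135.3 CPM in hyperoside libraries, and the 15 listed markers summed to 6021 to 7570 CPM in control and 5290 to 6311 CPM in hyperoside libraries, with 5 called higher and 6 lower. The labels give bone as the source tissue. The 9 bone markers in the table summed to only 16.4 to 19.3 CPM in control and 24.8 to 32.1 CPM in hyperoside libraries, and SP7 and ALPL never exceeded 3 counts. Of the 5 tested, ACP5 (log2 fold change 1.65) and CTSK (0.63) were called higher and COL1A1 (-0.99) lower. Lymphoid markers, 10 in the table, summed to 33.2 to 39.9 CPM and 42.8 to 47.98 CPM in turn, nearly all of it from CD3D, and CD2 and MS4A1 never exceeded 3 counts. Of the 4 tested, CD3D (0.29) and CD3G (1.39) were called higher. The 7 epithelial and stromal markers summed to 86.4 to 92.3 CPM and 101.7 to 112.03 CPM, mostly from EPCAM, with PECAM1 the single one called higher, PDGFRA at 0 in all libraries and LUM at 3 counts or fewer. The part of these markers in the results was not tested.

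Hyperoside-treated cells had 50.2% of the control CCND2 level and 48.2% of the control CDKN2D level. CCNE1 and CCND3 also fell, to 71.6% and 80.8% of control. CDKN1A and CDKN2C had 97.6% and 99.3% of control, without a call. The quasi-likelihood test of edgeR called 5 of the 10 genes lower at an adjusted p under 0.05 (Benjamini-Hochberg), where 23.2% of all 15095 tested genes were lower. A single member, CDKN1B, was called higher, where 22.1% of all tested genes were. Past the study's threshold, which also asks for a fold change above 2, lay 1 member, CDKN2D, against 10.2% of all tested genes in either direction. The groups did not overlap for 5 of the 10 members, close to the 54.4% of all tested genes. The median log2 fold change of the members was -0.29, and that of all tested genes was 0.0032. In bulk RNA a change in the share of cells in a cycle phase and a change in RNA per cell cannot be told apart.

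**Figure D1:**
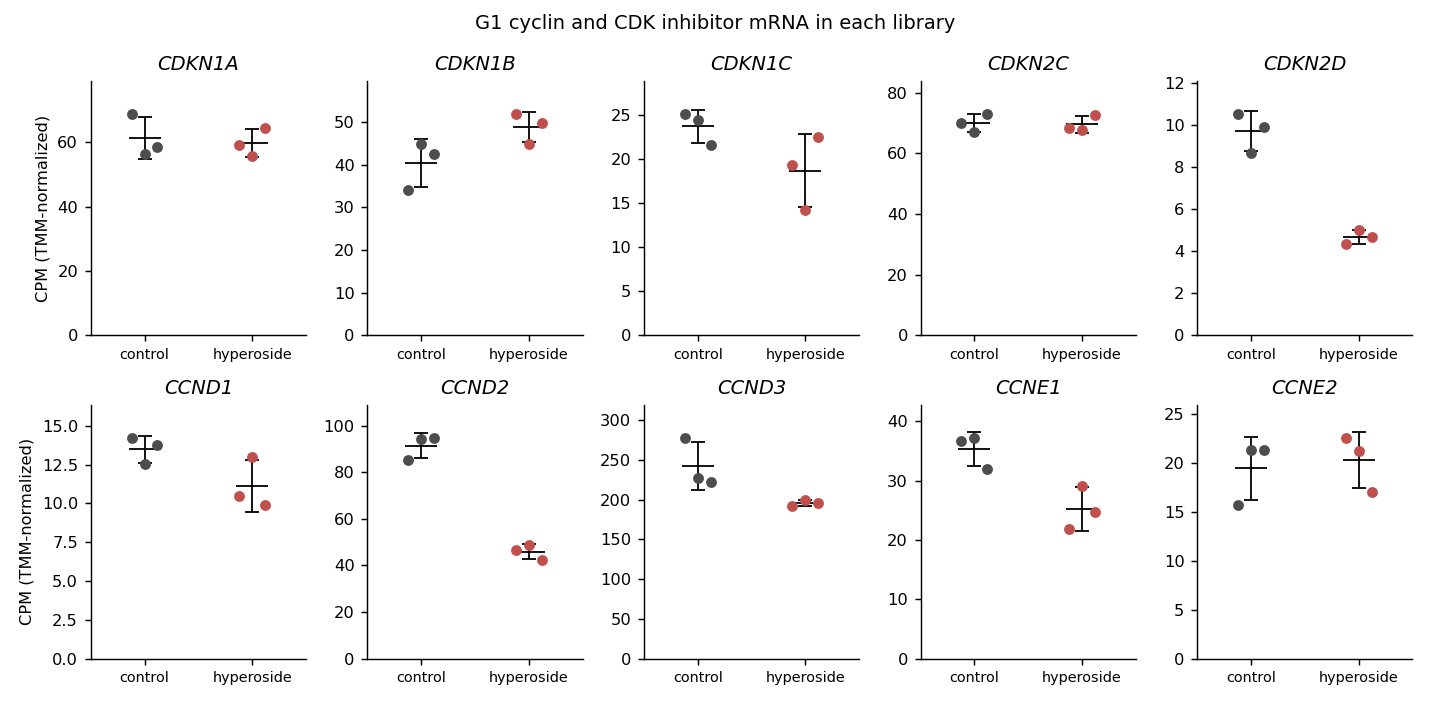
TMM-normalized CPM of each gene in the 6 libraries, with a separate y axis from 0 for each gene; each point is a library, and the bars give the mean and SD of 3. For CCND2 and CDKN2D the 3 hyperoside libraries lie far below the 3 control libraries, whereas for CDKN1A, CDKN2C and CCNE2 the points of the groups are mixed.

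RefSeq promoter windows of 300 bases (GRCh38.p14), from 250 bases before to 50 bases after the annotated start, were found for 6 of the 10 genes. Those of CDKN2D and CCNE1, which both fell, and of CDKN1B, which rose, are shown to set the sequence of some responding genes beside their values. CCND2 and CDKN1C had no entry. CCND3, which also fell, had several windows, with 0, 4 and 5 GC boxes, and these are not shown. The CDKN2D window lies at chr19:10568930-10569229 on the minus strand, the CCNE1 window at chr19:29811741-29812040 on the plus strand and the CDKN1B window at chr12:12717118-12717417 on the plus strand. The CDKN1B window lies wholly inside the gene span given below (chr12:12715058-12722371, from GENCODE), whose start differs from the RefSeq start. Capitals mark GC boxes (GGGCGG or its reverse complement CCGCCC) and CCAAT boxes (CCAAT or ATTGG).
CDKN2D: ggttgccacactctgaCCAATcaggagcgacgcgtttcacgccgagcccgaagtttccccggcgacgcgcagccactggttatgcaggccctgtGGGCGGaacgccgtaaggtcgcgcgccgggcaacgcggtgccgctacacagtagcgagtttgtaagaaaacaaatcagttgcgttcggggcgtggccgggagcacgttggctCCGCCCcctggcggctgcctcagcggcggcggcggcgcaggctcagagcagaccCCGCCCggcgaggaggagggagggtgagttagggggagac
CCNE1: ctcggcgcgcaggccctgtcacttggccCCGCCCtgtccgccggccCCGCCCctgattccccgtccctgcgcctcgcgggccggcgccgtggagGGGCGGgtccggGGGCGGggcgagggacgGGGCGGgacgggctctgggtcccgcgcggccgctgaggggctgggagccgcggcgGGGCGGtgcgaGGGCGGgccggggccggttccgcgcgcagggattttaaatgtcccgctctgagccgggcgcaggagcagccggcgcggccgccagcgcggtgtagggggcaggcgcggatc
CDKN1B: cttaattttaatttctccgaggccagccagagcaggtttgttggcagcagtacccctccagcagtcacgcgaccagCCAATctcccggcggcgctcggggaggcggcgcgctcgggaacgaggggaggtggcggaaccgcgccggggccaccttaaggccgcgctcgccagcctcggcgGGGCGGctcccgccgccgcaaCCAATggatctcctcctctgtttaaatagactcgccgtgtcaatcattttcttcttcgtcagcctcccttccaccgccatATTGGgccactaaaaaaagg
The windows differed in make-up. CCNE1 had 7 GC boxes, no CCAAT box and 81.0% G and C. CDKN2D had 3 GC boxes, 1 CCAAT box and 68.0% G and C, and CDKN1B had 1 GC box, 3 CCAAT boxes and 62.3% G and C. Among all 35116 RefSeq windows, 44.95% held a GC box and 34.6% a CCAAT box on either strand. The E2F core TCCCGC or GCGGGA, not marked here and free of overlap with CCAAT, occurred 3 times in the CCNE1 window. The GCGGGA match among these shares bases with a capitalized GC box. The E2F core occurred once in the CDKN1B window and nowhere in that of CDKN2D, and 26.9% of all windows held it. A match to these letters is a description of the window and not evidence of a bound factor.

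Among the D-type cyclins the largest response was that of CCND2, the cyclin D2 gene, at chr12:4273772-4305350 of GRCh38 on the plus strand. It had 85.3, 94.1 and 94.7 CPM in control replicates 1, 2 and 3, and 46.5, 48.6 and 42.4 CPM in hyperoside replicates 1, 2 and 3. Every hyperoside library lay below every control library, and the gap between the groups was far wider than the spread within either. By edgeR the log2 fold change came to -0.995 with an SE of 0.08 and an adjusted p of 4.77e-08. This value sits at the edge of the 2-fold threshold, and CCND2 crossed it without hyperoside replicate 1 (-1.01) or hyperoside replicate 2 (-1.04) and without control replicate 1 (-1.04), with adjusted p from 1.08e-27 to 1.54e-04 over all alternatives. Exons of CCND2 overlap the antisense gene CCND2-AS1, and the use of strand in counting is not given in the sources used here. CCND2-AS1 had at most 6 counts in any library, and its part in the CCND2 counts was not tested. AC008012.1, which overlaps on the same strand, was not analysed here.

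CCND3, the cyclin D3 gene, was the most abundant member and lies at chr6:41934933-42050357 on the minus strand. It had 277.5, 227.5 and 222.6 CPM in the control replicates and 192.1, 200.03 and 195.5 CPM in the hyperoside replicates. The groups did not overlap, and control replicate 1 was the highest library. CCND3 thus fell, by 0.31 on the log2 scale with an SE of 0.08 (edgeR adjusted p = 0.0051). Without control replicate 1 the fall was smaller, at -0.20 with an edgeR adjusted p of 0.0091, and the adjusted p lay between 4.72e-04 and 0.0322 over the alternatives. CCND3 exons overlap AL513008.1 on the opposite strand, which was not analysed here.

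CCND1, the cyclin D1 gene, was the scarcest member per length. It had 14.2, 12.5 and 13.7 CPM in the control replicates and 10.5, 13.02 and 9.88 CPM in the hyperoside replicates, so the groups overlapped through hyperoside replicate 2. CCND1 was not called, with a log2 fold change of -0.28, a 95% interval from -0.56 to 0.0016 and an edgeR adjusted p of 0.0976. Without hyperoside replicate 2 it was called lower, at -0.41 with an edgeR adjusted p of 0.0316, and the range over the alternatives was 0.0316 to 0.338. CCND1 exons overlap LTO1 on the opposite strand, which had a log2 fold change of 0.13 (adjusted p = 0.404 from edgeR). The part of LTO1 in the CCND1 counts was not tested.

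In FPKM, fragments scaled to gene length and library size so that levels of different genes can be compared, CCND3 made up most of the D-type cyclin message. Its share was 84.4%, 80.7% and 80.0% in control replicates 1, 2 and 3, and 86.5%, 85.9% and 87.6% in hyperoside replicates 1, 2 and 3. Every treated library was above every control. CCND2 supplied 14.95% ± 2.17 of it in control cells and 9.74% ± 0.531 in treated cells (SD, n = 3 libraries each), and CCND1 3.36% ± 0.240 and 3.62% ± 0.443. All D-type cyclins together came to 93.2 ± 6.61 FPKM in control and 73.7 ± 2.01 FPKM in treated cells. To compare the paralogs directly, log2 ratios of their CPM were formed in each library for 8 pairs within families. The ratio of CCND2 to CCND3 was lower in treated cells, with mean log2 values of -2.10 against -1.40 and a difference of -0.69, and that of CCND1 to CCND2 was higher by 0.71, each without overlap between the groups. An exact permutation test (two-sided) gave p = 0.1 for each, the smallest that 20 regroupings allow, and an adjusted p of 0.133 over the 8 pairs, so this design could not reach the threshold. CCND1 to CCND3 overlapped, with a difference of 0.016 (exact permutation p = 1). Of all tested single genes, 54.4% did not overlap between the groups. No such share was formed for ratios of other gene pairs, so the lack of overlap in these and the later ratios is only a description.

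**Figure D2:**
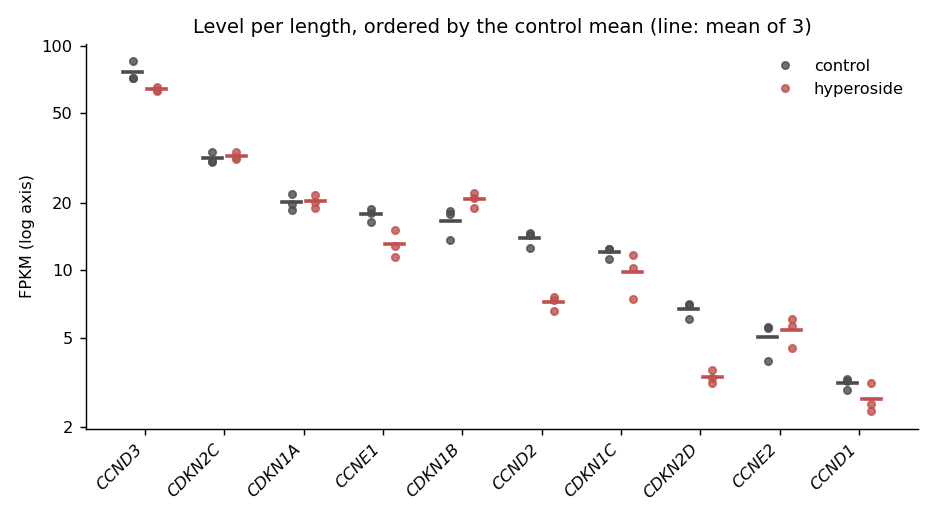
FPKM of each gene on a log axis, ordered by the control mean; points are libraries and lines are means of 3. CCND3 is highest and CCND1 lowest in both groups, and CCND2 drops from the sixth to the seventh place.

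Of the E-type cyclins, CCNE1 was called lower and CCNE2 was not called. CCNE1, the cyclin E1 gene at chr19:29811898-29824308 on the plus strand, had 36.6, 37.2 and 31.96 CPM in the control replicates and 21.8, 29.1 and 24.8 CPM in the hyperoside replicates. All hyperoside libraries lay below all controls, with hyperoside replicate 2 nearest to them. CCNE1 fell by 0.48 on the log2 scale with an SE of 0.11 (edgeR adjusted p = 0.0016).

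CCNE2, the cyclin E2 gene, had 15.8, 21.28 and 21.3 CPM in the control replicates and 22.6, 21.27 and 17.1 CPM in the hyperoside replicates. The ranges overlapped almost in full, with control replicate 1 the lowest library. It was not called, with a log2 fold change of 0.062, a 95% interval from -0.22 to 0.34 and an edgeR adjusted p of 0.732. The sign of this value turned without control replicate 1 or hyperoside replicate 1. CCNE2 exons overlap INTS8 on the opposite strand, which fell with a log2 fold change of -0.51 (adjusted p = 1.18e-05 from edgeR). The part of INTS8 in the CCNE2 counts was not tested. AC087752.4, which also overlaps on the opposite strand, was not analysed here. The log2 ratio of CCNE1 to CCNE2 differed by -0.55 without overlap between the groups (exact permutation p = 0.1, adjusted 0.133), and the CCNE1 share of E-type FPKM was 77.98% ± 3.73 in control and 70.7% ± 4.65 in hyperoside libraries (SD, n = 3 each).

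Of the INK4 inhibitors, CDKN2D was called lower and CDKN2C was not called. CDKN2D encodes p19, an inhibitor of CDK4 and CDK6, and lies at chr19:10566462-10569059 on the minus strand. It had 10.5, 8.69 and 9.94 CPM in the control replicates and 4.36, 5.01 and 4.68 CPM in the hyperoside replicates. The highest hyperoside library was well below the lowest control. CDKN2D fell by 1.05 on the log2 scale with an SE of 0.16 (edgeR adjusted p = 2.99e-05). Its 95% interval, from -1.38 to -0.72, spans the 2-fold threshold, and without control replicate 1 the value was -0.99, with adjusted p from 3.48e-08 to 3.60e-04 over all alternatives. CDKN2D was the least abundant inhibitor, at 6.70 ± 0.580 FPKM in control and 3.34 ± 0.222 FPKM in hyperoside libraries (SD, n = 3 each).

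CDKN2C encodes p18, which acts on the same kinases, and lies at chr1:50960745-50974633 on the plus strand. It had 70.1, 66.95 and 72.9 CPM in the control replicates and 68.4, 67.6 and 72.6 CPM in the hyperoside replicates. The hyperoside range lay inside the control range. Its log2 fold change was -0.0098 with a 95% interval from -0.17 to 0.15 (edgeR adjusted p = 0.928), and the sign varied with the analysis. The log2 ratio of CDKN2C to CDKN2D was higher by 1.03 in treated cells without overlap (exact permutation p = 0.1, adjusted 0.133). CDKN2D supplied 17.6% ± 1.08 of INK4 FPKM in control and 9.38% ± 0.725 in treated cells (SD, n = 3 each). CDKN2C supplied the rest, and the INK4 sum was 38.1 ± 2.11 FPKM in control and 35.6 ± 0.974 FPKM in treated cells.

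Of the Cip/Kip inhibitors, CDKN1A at chr6:36676460-36687339 on the plus strand showed no call. It had 68.7, 56.5 and 58.7 CPM in the control replicates and 59.02, 55.9 and 64.6 CPM in the hyperoside replicates. Control replicate 1 was the highest library and the rest were interleaved. Its log2 fold change was -0.035 with a 95% interval from -0.23 to 0.16 (edgeR adjusted p = 0.781), and the sign varied with the analysis. The antisense gene DINOL overlaps CDKN1A exons and had at most 9 counts in any library, and its part in the CDKN1A counts was not tested.

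CDKN1B, the p27 gene at chr12:12715058-12722371 on the plus strand, had 34.2, 44.9 and 42.5 CPM in the control replicates and 51.9, 44.96 and 49.9 CPM in the hyperoside replicates. The groups were barely separate, since control replicate 2 and hyperoside replicate 2 were nearly equal, and control replicate 1 was the lowest library. CDKN1B rose by 0.27 on the log2 scale with an SE of 0.10 (edgeR adjusted p = 0.0390). The call was lost without control replicate 1 (log2 fold change 0.17, adjusted p = 0.106), hyperoside replicate 1 (0.23, adjusted p = 0.159) or hyperoside replicate 3 (0.27, adjusted p = 0.108), by edgeR, and also with limma on log2(FPKM + 1) (0.31, adjusted p = 0.0528). Over all alternatives the adjusted p ran from 0.0151 to 0.159.

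CDKN1C, the p57 gene at chr11:2883213-2885773 on the minus strand, had 25.1, 24.4 and 21.6 CPM in the control replicates and 19.3, 14.2 and 22.5 CPM in the hyperoside replicates. The groups overlapped, as hyperoside replicate 3 lay above control replicate 3. CDKN1C fell by 0.34 on the log2 scale with an SE of 0.14 (edgeR adjusted p = 0.0471). The call was lost without control replicate 1 (-0.30, adjusted p = 0.0666), control replicate 2 (-0.32, adjusted p = 0.110), hyperoside replicate 1 (-0.37, adjusted p = 0.0860) or hyperoside replicate 2 (-0.18, adjusted p = 0.260). DESeq2 gave CDKN1C an adjusted p of 0.0561, and the range over all alternatives was 0.0140 to 0.260. The log2 ratio of CDKN1B to CDKN1C was higher in treated cells by 0.64 and that of CDKN1A to CDKN1C by 0.33, both without overlap (exact permutation p = 0.1, adjusted 0.133). The ratio of CDKN1A to CDKN1B overlapped between the groups (difference -0.31, exact permutation p = 0.2, adjusted 0.229).

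**Figure D3:**
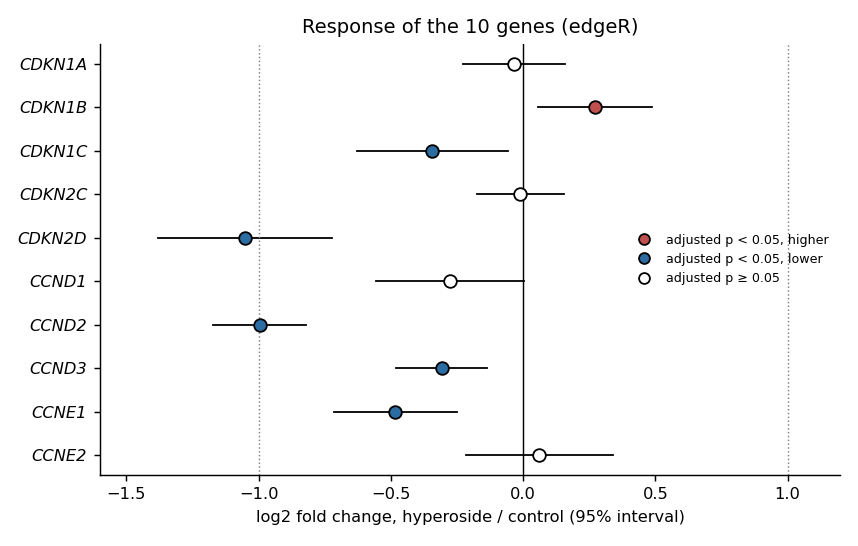
Log2 fold change of each gene in hyperoside against control cells, with its 95% interval from edgeR; filled points passed an adjusted p under 0.05 and dotted lines mark a 2-fold change. CCND2 (-0.995) and CDKN2D (-1.05) lie at the lower 2-fold line, and the intervals of CDKN1A, CDKN2C, CCND1 and CCNE2 include 0.

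In the order of FPKM levels, CCND3 led both groups, at 76.2 ± 7.65 in control and 63.8 ± 1.19 in hyperoside libraries, followed by CDKN2C at 31.4 ± 1.74 and 32.3 ± 1.04 (SD, n = 3 each). Among controls CDKN1A, CCNE1, CDKN1B and CCND2 came next, at 20.04, 17.7, 16.6 and 13.8 FPKM, and each overlapped its neighbour in that order. CDKN1C (11.99), CDKN2D (6.70), CCNE2 (5.01) and CCND1 (3.13) then followed without overlap. Among treated libraries CDKN1B (20.6) and CDKN1A (20.3) overlapped, as did CCNE1 (13.1) with CDKN1C (9.79) and CDKN1C with CCND2 (7.18). CCNE2 (5.403), CDKN2D (3.34) and CCND1 (2.67) followed without overlap.

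Put beside their kinases, the D-type cyclins came to 116.6, 110.4 and 108.7 FPKM per 100 FPKM of CDK4 and CDK6 in control replicates 1, 2 and 3. In hyperoside replicates 1, 2 and 3 the values were 67.5, 63.4 and 64.6. Every hyperoside library was well below the controls. CCND2 and CCND3 fell, and CDK4 rose from 137.5 to 187.3 CPM (log2 fold change 0.45, adjusted p = 1.58e-04 from edgeR). CDK6 had a log2 fold change of -0.026 (adjusted p = 0.832 from edgeR). INK4 message per 100 FPKM of both kinases was 45.8 ± 2.88 in control and 31.6 ± 2.04 in treated cells, and Cip/Kip message per 100 FPKM of D-type and E-type cyclins was 41.995 ± 2.61 and 55.2 ± 7.31 in turn (SD, n = 3 each). The Cip/Kip sum itself was 48.6 ± 0.809 FPKM in control and 50.7 ± 4.70 FPKM in hyperoside libraries. These sums describe message, not protein, and were not tested. FPKM are scaled to library totals without the TMM factors, from 0.957 to 1.025, that enter CPM. Small group differences can therefore differ in direction: CDKN2C had 31.4 FPKM in control and 32.3 in hyperoside libraries, but 69.99 and 69.5 CPM.

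Among the other G1 kinases and their activators, 7 genes were tested, of which 3 were called lower and 1 higher, with a median log2 fold change of -0.23. CDK4 was the higher one. CDK2, the partner of cyclin E, fell with a log2 fold change of -0.36 (adjusted p = 6.03e-04 from edgeR). CCNH and CDK7, which form the CDK-activating kinase with MNAT1, had values of -0.49 and -0.23 (adjusted p = 4.11e-05 and 0.0326 from edgeR).

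Of 13 pocket protein, E2F and DP genes, 4 were called higher and 2 lower, with a median of 0.13. RB1, the retinoblastoma gene, rose with a log2 fold change of 0.31 and its relative RBL2 fell with -0.42. TFDP2, a dimer partner of E2F factors, had 0.34, the activator E2F3 0.27 and E2F4, which mostly represses, 0.27. E2F7, a repressor that is itself an E2F target, had -0.39. E2F1 was not called, at 0.13 (adjusted p = 0.253 from edgeR).

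The list of ubiquitin ligase genes that act on these proteins also held the deubiquitinase genes USP2 and USP28. Of its 12 genes, 3 were called lower and 2 higher, with a median of -0.14. The lower ones were SKP2 (-0.40), its cofactor CKS1B (-0.46) and SKP1 (-0.28), all parts of the ligase that degrades p27. CUL1, the scaffold of the same ligase, rose by 0.87 on the log2 scale (adjusted p = 6.66e-08 from edgeR), and AMBRA1, which directs the degradation of D-type cyclins, by 0.40. FBXW7, which targets cyclin E, was not called, at 0.059.

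S-phase genes driven by E2F were not called in 13 of 18 cases, with 3 lower and 2 higher and a median of -0.0050. CDC6 (-0.35), MCM6 (-0.29) and CCNA2 (-0.25), which act in origin licensing and S phase, fell. TYMS, the thymidylate synthase gene, and POLA1, a subunit of DNA polymerase alpha, rose by 0.50 and 0.39. Of 12 cyclin, kinase and phosphatase genes of G2 and mitosis, 6 were called lower and 1 higher, with a median of -0.28. The shares over all tested genes were 23.2% lower and 22.1% higher. CDK1 (-0.65), AURKB (-0.82) and BUB1 (-0.53) were lower, and WEE1, which inhibits CDK1, was higher (0.35).

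Targets of p53 other than CDKN1A moved both ways. Of 21 listed genes 20 were tested, with 8 called lower and 4 higher and a median of -0.23, where 23.2% and 22.1% of all tested genes were. SESN2 (-1.44), PLK3 (-0.76) and BBC3 (-0.72) had the smallest adjusted p among those lower, and BTG2 (0.80), TP53I3 (1.29) and MDM2 (0.62) among those higher. FOXO factors, which can induce CDKN1B, and quiescence genes were called lower in 5 and higher in 4 of 12, with a median of 0.13. FOXO3 rose by 0.68, with BTG1 by 0.64 and IRS2 by 0.78, while FOXO4 (-0.75), FOXO1 (-0.85) and HBP1 (-0.38) fell.

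**Figure D4:**
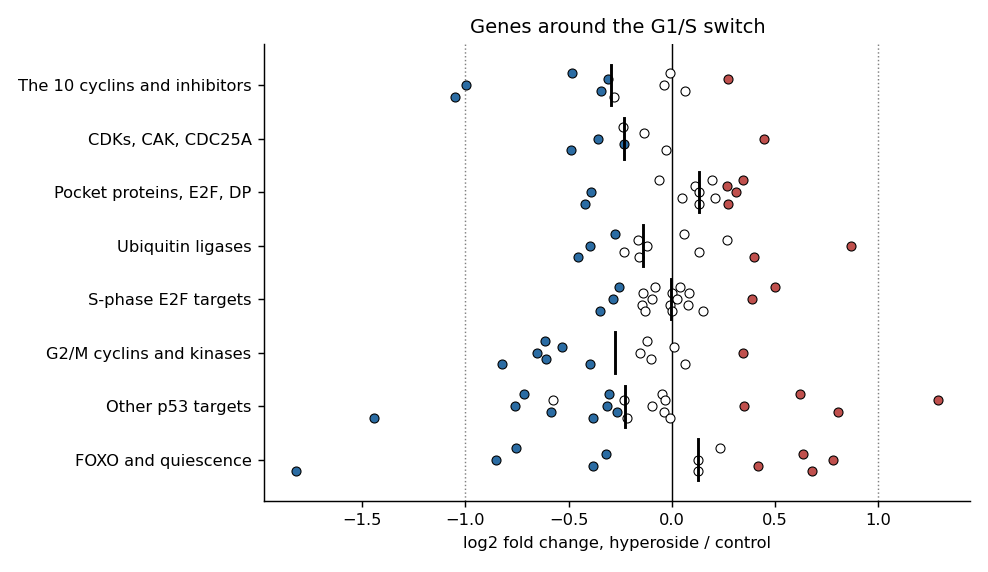
Log2 fold change of each tested gene by group, with red points called higher, blue points called lower, white points not called and dotted lines at a 2-fold change; the black bar is the group's median. Of the 8 groups, the G1 cyclins and inhibitors (-0.29) and the G2/M genes (-0.28) have the lowest medians, and S-phase targets cluster around 0 with a median of -0.0050.

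CCND2 had the smallest adjusted p of the 10 genes. The genes whose log2 CPM followed it most closely over the 6 libraries were ETV5 (Pearson r = 0.999), PTGES3 (r = 0.999) and ZFAND1 (r = 0.998), given as a description. ETV5, an ETS family transcription factor, had 30.2, 32.2 and 32.6 CPM in the control replicates and 15.6, 15.7 and 13.6 CPM in the hyperoside replicates. The libraries fall into 2 groups, so such a coefficient largely restates the difference between groups, and 953 genes had r above 0.95.

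**Figure D5:**
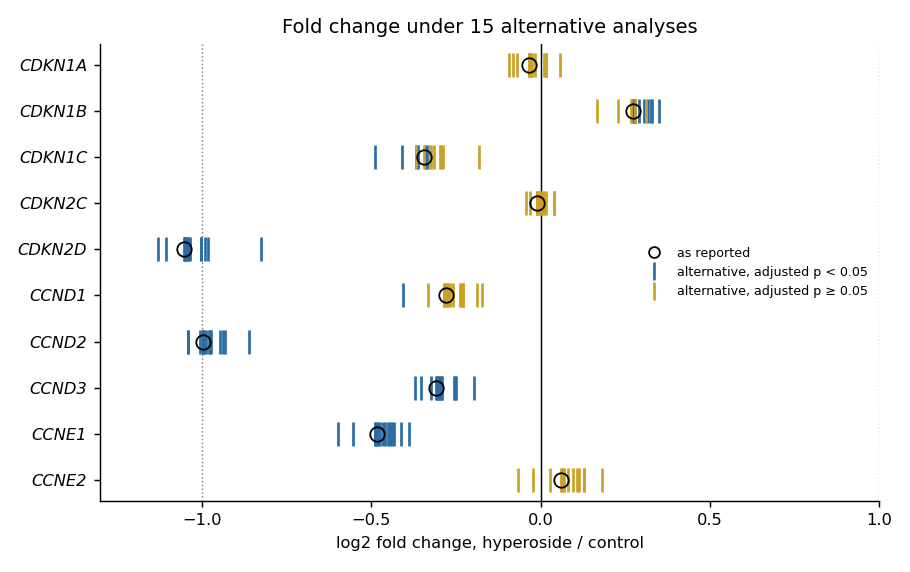
Log2 fold change of each gene as reported (circle) and under 15 alternative analyses (ticks; blue where the adjusted p was under 0.05, gold where it was not). CCND2, CDKN2D, CCND3 and CCNE1 are blue throughout, whereas CDKN1B and CDKN1C carry both colours.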

How the data were processed

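Counts per gene were deposited by the authors without normalization. The authors also deposited FPKM values, which are these counts scaled by gene length and library total. A single gene length accounted for the FPKM values of all libraries, within a tolerance of 0.1%, in 100% of the 23241 genes with a count. The submitters' processing notes name fastp, HISAT2, HTSeq and hg38. Their versions, the annotation and the strand setting are not given in the sources used here.

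The sample labels gave groups and replicate numbers, and the study's text gave the dose. Counts were filtered with filterByExpr (minimum count 10, minimum total 15), normalized by TMM and compared across all 15095 remaining genes by the quasi-likelihood test of edgeR 4.0.16 in R 4.3.3. P-values were adjusted over all of them (Benjamini-Hochberg). The study's fold change threshold of 2 was applied in addition where stated. The standard error is the log2 fold change divided by the square root of F. CPM are TMM-normalized, and log2 CPM used a prior count of 2. Ratios within families were compared with two-sided exact permutation tests. DESeq2 1.42.0 and limma 3.58.1 served as alternatives, along with other filters, scalings, a replicate block and leaving out each library. The fit was tested on simulated counts. Positions came from GENCODE 29 on GRCh38 and promoters from RefSeq GRCh38.p14. Figures used matplotlib 3.10.9 and tables pandas 2.3.3 in Python 3.11.15.

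The genes and lists were chosen with earlier results of these data known. All 10 members are named. Of each other list, up to 3 genes each way are named, those of smallest adjusted p, and CDK6, E2F1, E2F3, FBXW7, CDKN2A, CDKN2B, the marker genes and the overlapping genes were added after their values were seen. CDK3 and 4 marker genes were not found in the table by symbol. Library totals, from 35613283 to 36754725 counts, put the limit of 3 counts that a count of 0 allows at 0.0817 to 0.0853 CPM, for counting error only. Other annotation columns were not used here.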

Additional observations from a re-analysis of the deposited data

How the results depend on the processing

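CCND2, CDKN2D, CCND3 and CCNE1 were called lower in each of the 15 alternatives run, with log2 fold changes from -1.04 to -0.86, from -1.13 to -0.82, from -0.37 to -0.20 and from -0.60 to -0.39. The number of members called lower stayed between 4 and 5. CDKN1B lost its call in 5 alternatives and CDKN1C in 9, and the number called higher fell to 0 with limma on log2(FPKM + 1) and with the replicate block, where CDKN1B had an edgeR adjusted p of 0.0596, and lay between 0 and 1 when single libraries were left out. Same-numbered libraries showed no shared deviation (correlations from -0.081 to -0.033), which does not settle whether the numbers mark pairs. The replicate block changed no other member's call. Members past 2-fold numbered 0 with limma on log2(FPKM + 1) or log2(FPKM + 0.1), which differ from the reported fit in scaling, test and added value together, and 1 to 2 without single libraries. Among all tested genes, 344 passed 2-fold with limma on log2(FPKM + 1), 1235 with log2(FPKM + 0.1) and 1537 as reported. CDKN2D had -0.82 and -0.98 in these 2 FPKM forms in turn. Of the 8 ratios within families, 6 kept the groups apart with a prior count of 0.5 and also with FPKM + 0.1. Without single libraries 6 to 7 did. Leaving out a library cannot make separated groups overlap, so that count could not fall and says nothing on stability.

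Signs turned only for values near 0. CDKN1A had 0.016 with library totals alone, 0.016 and 0.017 with limma on log2(FPKM + 1) and log2(FPKM + 0.1), and ranged from -0.092 to 0.058 without single libraries (0.011 without hyperoside replicate 2). CDKN2C had 0.039 with library totals alone, 0.0083 with a minimum count of 50, 0.039 and 0.040 with the FPKM forms, and ranged from -0.043 to 0.017 without single libraries. CCNE2 ranged from -0.066 to 0.183 without single libraries, below 0 without control replicate 1 or hyperoside replicate 1. The log2 ratio of CCND1 to CCND3 ranged from -0.086 to 0.095, below 0 without hyperoside replicate 2 or control replicate 1. The cause was not tested.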
